A study of Homo sapiens with 21 samples.

Results

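Transcriptomes of HEK 293FT cells carrying a gene-targeting short hairpin RNA (shRNA) were compared with those of cells carrying RfxCasR and a single guide RNA (gRNA). HEK 293FT is a human embryonic kidney line that carries the SV40 large T antigen. The comparison used 12 of the 21 libraries of the series. The 6 shRNA libraries were 3 replicates with an shRNA against ANXA4 and 3 with an shRNA against B4GALNT1. The 6 RfxCasR libraries were 3 replicates with a non-targeting (NT) gRNA and 3 with a gRNA against B4GALNT1. All 12 cultures were transfected with plasmid in Lipofectamine, and RNA was taken after 48 h. No untransfected library is among the 21, so every difference below is between 2 transfected states. The 3 NT shRNA libraries and the 6 libraries with RfxCasR guide arrays stayed out of the comparison and are given beside it. The series title places the question in the specificity of RNA targeting.

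An shRNA is transcribed from the plasmid, exported from the nucleus, cut by Dicer and loaded on an Argonaute protein, which silences matching messenger RNA with the help of TNRC6 proteins. It uses the enzymes that the cell's own microRNAs need. RfxCasR is a CRISPR nuclease of the Cas13d family, made from a plasmid as a foreign protein, that cuts RNA matching its guide and needs none of those enzymes. The shRNA groups and the RfxCasR groups therefore differ in the plasmid, in the presence of a foreign protein and in the genes targeted, and these cannot be told apart by the design.

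Levels are FPKM, reads per kilobase of exon scaled to library depth. Differences are of log2(FPKM + 1), on which low genes show less change than they have. A gene was called higher or lower when the limma adjusted p of the 6 shRNA against the 6 RfxCasR libraries was under 0.05 and both shRNA groups lay on the same side of the RfxCasR mean. The second condition asks for the sign alone. The shRNA libraries held 21.4 to 28.95 M reads and the RfxCasR libraries 24.5 to 30.7 M, as worked out from steps in the FPKM values. FPKM summed to 388258 to 399295 with shRNA and to 399027 to 408042 with RfxCasR. Of 14 identity genes of the HEK line, 5 were called lower and 2 higher with shRNA (35.7% and 14.3%, against 24.2% and 24.8% of all genes). VIM, at 550 to 569 FPKM with shRNA and 551 to 588 with RfxCasR, was not called (limma adjusted p = 0.221), while NES, KRT18 and KRT8 were lower. Markers of other cells (blood, fibroblast, endothelium) numbered 21, of which 14 were below the level tested, and they summed to 14.5 to 17.0 FPKM with shRNA and 16.7 to 20.5 with RfxCasR. The series calls the replicates biological and says no more, so p-values speak of the spread among these libraries only.

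The targeted genes were examined first. ANXA4 encodes a calcium-dependent membrane-binding annexin (hg19 chromosome 2, 69969106 to 70053609). It was at 2.15, 2.56 and 2.496 FPKM in the 3 ANXA4 shRNA libraries and at 4.78, 4.65 and 5.46 in the 3 B4GALNT1 shRNA libraries. With the NT gRNA it was at 7.30, 6.56 and 7.26 FPKM, and with the B4GALNT1 gRNA at 7.08, 7.60 and 7.03. All 6 shRNA libraries thus lay below all 6 RfxCasR libraries, also those whose shRNA targets B4GALNT1. The pooled difference was -0.86 log2 (SE 0.054, limma adjusted p = 2.85e-10), and the exact two-sided permutation p over the 12 libraries was 0.00216, the smallest that 924 splits allow. The NT shRNA libraries held 5.57 to 6.31 FPKM of ANXA4.

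B4GALNT1, the enzyme that adds N-acetylgalactosamine to make complex gangliosides, was examined next (hg19 chromosome 12, 58019678 to 58027022). Its levels were 5.80, 5.49 and 5.63 FPKM with the ANXA4 shRNA and 2.96, 2.79 and 2.59 with the B4GALNT1 shRNA. They were 5.09, 6.88 and 5.69 FPKM with the NT gRNA and 2.26, 2.35 and 2.03 with the B4GALNT1 gRNA. Each method thus held 1 group with a low level and 1 with a high level, and the pooled difference of 0.10 log2 was not called (SE 0.053, limma adjusted p = 0.133; exact two-sided permutation p = 0.844). Its pooled p depends on 1 library, since without replicate 2 of the NT gRNA the difference was 0.15 log2 (limma adjusted p = 0.0119). The 2 shRNA groups lay on opposite sides of the RfxCasR mean, so B4GALNT1 could not be called by the rule on sign.

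Of 13679 genes tested, 3399 (24.8%) were called higher with both shRNAs and 3316 (24.2%) were called lower, 49.1% in all. Most differences were small. The median absolute difference was 0.15 log2, and only 5 genes (0.0366%) were higher and 23 (0.168%) lower by 1 log2 unit or more. With each shRNA group called separately against the RfxCasR libraries, 1929 genes (14.1%) were higher with both and 1664 (12.2%) lower with both. The 6 shRNA libraries did not overlap the 6 RfxCasR libraries for 1788 genes above them (13.1%) and 1510 below them (11%).

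The spread between constructs of 1 method set these counts in scale. The 2 shRNA groups differed from each other in 6384 genes (46.7%; 27.1% higher and 19.6% lower with the ANXA4 shRNA), with a median absolute difference of 0.17 log2. The 2 gRNA groups differed in 1 gene (0.00731%), B4GALNT1 itself, with a median of 0.04 log2 and 523 genes at an unadjusted p under 0.05. With 2 constructs against 2, an exact test over constructs cannot go below 0.333, so the p-values here describe libraries and not shRNAs or guides in general. The ANXA4 shRNA alone differed from the RfxCasR libraries in 8109 genes (59.3%) and the B4GALNT1 shRNA in 6254 (45.7%), and both use the same RfxCasR libraries. For 836 genes (6.11%) both shRNAs were called and pointed in opposite directions.

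**Figure D1:**
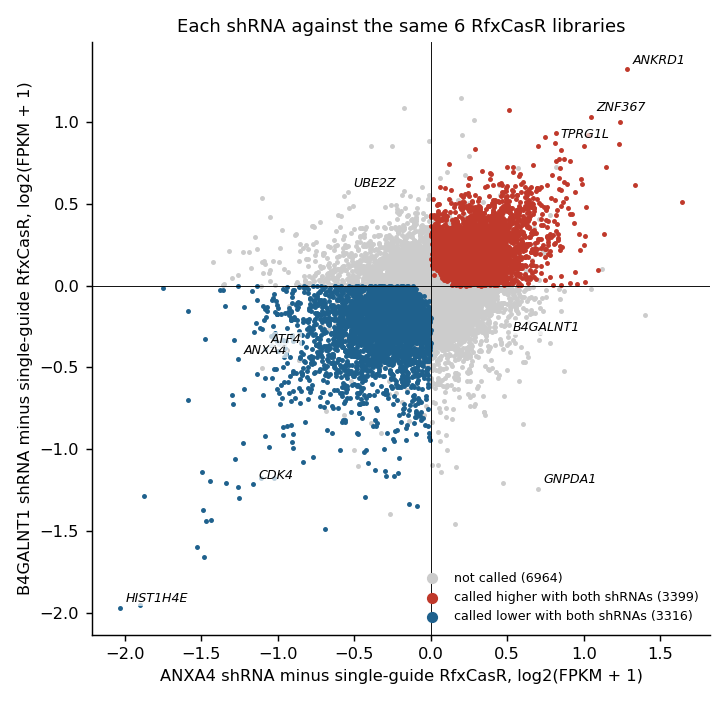
Difference of the ANXA4 shRNA (horizontal) and of the B4GALNT1 shRNA (vertical) from the mean of the same 6 RfxCasR libraries, in log2(FPKM + 1), 1 point per gene (n = 13679), with 3399 genes called higher in red, 3316 called lower in blue and the rest in grey. Both axes share the RfxCasR libraries, so the slope of the cloud is no result, and the points to read are the named genes far from 0 on both axes, such as ANKRD1 at upper right and HIST1H4E at lower left, and GNPDA1 and UBE2Z in the other corners.

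Among genes higher with both shRNAs, ANKRD1 came first by the smaller of its 2 shRNA differences. It encodes a cardiac ankyrin repeat protein and is a much-used target gene of the YAP coactivator (hg19 chromosome 10, 92671857 to 92681032). It was at 29.9, 28.8 and 28.1 FPKM with the ANXA4 shRNA and at 29.3, 30.2 and 29.8 with the B4GALNT1 shRNA. RfxCasR libraries held 11.9, 10.4 and 12.3 FPKM with the NT gRNA and 12.5, 10.9 and 9.98 with the B4GALNT1 gRNA. Groups overlapped within each method and not between methods, the latter being a condition for naming it here. The ratio of mean FPKM was 2.59 (1.30 log2, SE 0.049, limma adjusted p = 2.54e-13). The NT shRNA libraries stood between, at 15.6, 18.0 and 18.1 FPKM. CYR61 and CTGF, also known as YAP targets, were called higher as well, at 0.32 and 0.41 log2 (CTGF was chosen after its value was seen). YAP targets were not counted as a list, and 24.8% of all genes were called higher.

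TMEM64, a transmembrane protein, was at 8.03 to 9.24 FPKM with the ANXA4 shRNA, at 7.02 to 7.15 with the B4GALNT1 shRNA and at 2.80 to 3.34 with RfxCasR (1.12 log2, SE 0.043, limma adjusted p = 4.36e-13). Its NT shRNA libraries, at 3.20 to 3.65 FPKM, were at the RfxCasR level. ZNF367, a zinc finger transcription factor, was at 12.5 to 14.0 FPKM with shRNA and at 5.21 to 6.33 with RfxCasR (1.04 log2, SE 0.059, limma adjusted p = 6.55e-11), and here the NT shRNA libraries were higher still, at 21.1 to 21.6. The antiproliferative gene BTG3 was at 36.3 to 41.4 FPKM with shRNA and 17.5 to 20.9 with RfxCasR, with the NT shRNA libraries at 33.5 to 35.4. These genes show 3 placements of the left-out NT shRNA: with RfxCasR, beyond the targeting shRNAs, and just short of them.

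NR1H2, the liver X receptor beta, was at 16.5 to 20.3 FPKM with shRNA and 8.28 to 10.9 with RfxCasR, and at 14.6 to 16.01 with the NT shRNA. The HOX transcription factor HOXA2 was low in all libraries, at 1.32 to 2.49 FPKM with shRNA and 0.392 to 0.8 with RfxCasR. TPRG1L, a presynaptic vesicle protein, was at 24.4 to 27.01 FPKM with shRNA and 12.9 to 14.3 with RfxCasR, while its NT shRNA libraries, at 6.74 to 7.13, lay below both. CDC37L1, a relative of the HSP90 cochaperone CDC37, was at 3.46 to 4.01 against 1.45 to 1.97 FPKM. The Fn14 receptor gene TNFRSF12A was at 21.8 to 24.9 against 10.6 to 13.9 FPKM. REEP3, an endoplasmic reticulum protein, was at 11.3 to 12.6 against 6.003 to 6.95, and TMEM245, the host gene of miR-32, at 23.0 to 26.3 against 12.9 to 13.5 FPKM. In each of these 7 genes the lowest shRNA library lay above the highest RfxCasR library, which was a condition for naming them. Chosen after their values were seen, the remaining genes higher by 1 log2 unit or more are UHMK1, a kinase (1.08 log2), and MIR4741, an annotation of 89 bases (1.05 log2).

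**Figure D2:**
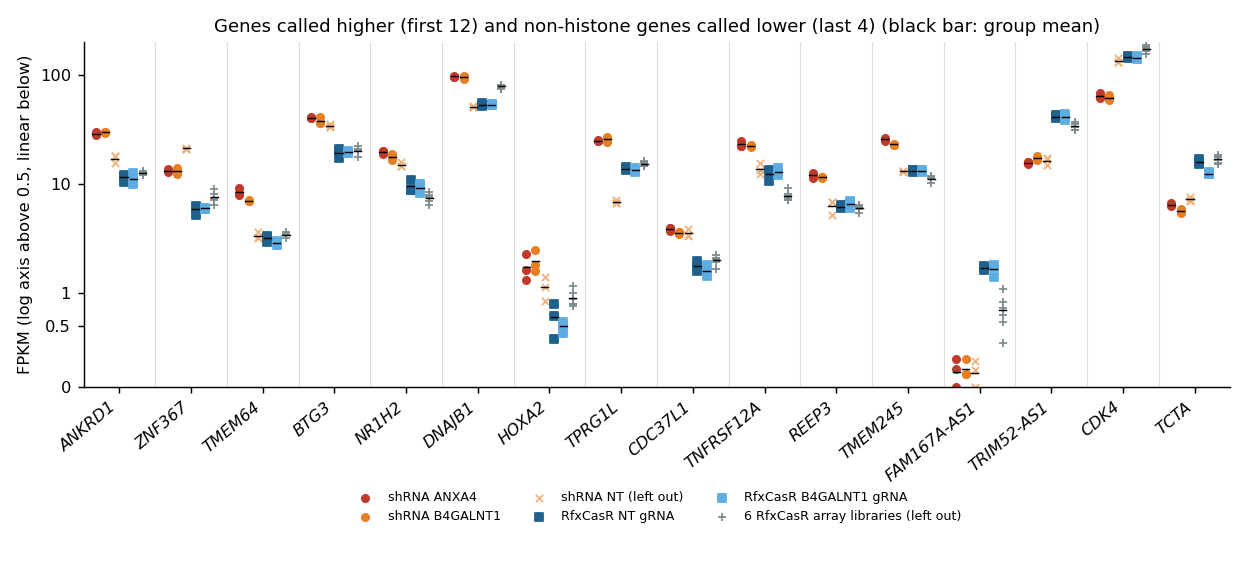
FPKM in every library (vertical; log axis above 0.5, linear below) for the 12 genes with the largest shared rise and the 4 non-histone genes among the 12 largest shared falls, with circles for the 2 targeting shRNAs, squares for single-guide RfxCasR, crosses for the NT shRNA, plus signs for the arrays and a bar for each group mean. Circles and squares do not overlap in any of the 16 genes, because the choice of genes required it. The crosses sit just below the circles for BTG3, with them for TRIM52-AS1, with the squares for TMEM64 and DNAJB1, and below both for TPRG1L.

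Histone genes were 8 of the 12 largest falls among genes of at least 200 bases without overlap between the methods, and 10 of the 23 genes lower by 1 log2 unit or more. Replication-dependent histone genes, named HIST here, lie in clusters, have no introns, are transcribed in S phase, and yield messenger RNA that mostly ends in a stem-loop without a poly(A) tail. How the libraries were enriched for messenger RNA is not given in the sources used here. HIST1H4E, a histone H4 gene (hg19 chromosome 6, 26204873 to 26205249), was at 1.31, 0.877 and 0.355 FPKM with the ANXA4 shRNA and at 0.554, 1.41 and 0.775 with the B4GALNT1 shRNA. RfxCasR libraries held 8.44, 6.78 and 5.21 FPKM with the NT gRNA and 6.54, 5.96 and 5.70 with the B4GALNT1 gRNA. The mean with RfxCasR was 7.31 times that with shRNA (-2.00 log2, SE 0.17, limma adjusted p = 1.34e-08). HIST1H4H, another H4 gene (hg19 chromosome 6, 26285354 to 26285727), was at 0.594 to 2.52 FPKM with shRNA and at 6.62 to 10.4 with RfxCasR (-1.93 log2, SE 0.15, limma adjusted p = 4.72e-09). The NT shRNA libraries held 0.579 to 2.12 FPKM of HIST1H4E and 1.40 to 2.25 of HIST1H4H, near the targeting shRNAs.

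Histones H3 and H2A gave the next falls. HIST1H3D was at 0.181 to 0.460 FPKM with shRNA and at 2.03 to 3.76 with RfxCasR. HIST1H2AD was at 0.0870 to 0.545 against 1.61 to 3.78 FPKM; it overlaps HIST1H3D on the same strand, so reads of these genes may be shared. HIST1H3E was at 0.271 to 1.34 against 3.03 to 5.04 FPKM, and HIST1H2AM at 0.365 to 2.40 against 4.18 to 7.12. HIST1H2AC was at 1.64 to 3.58 against 6.78 to 10.5, and the H2B gene HIST1H2BJ at 1.59 to 2.67 against 4.75 to 6.22 FPKM. In none of these 6 genes did the methods overlap, which was a condition for naming them. HIST genes at higher levels also fell: the linker histone gene HIST1H1C was at 9.96 to 11.3 FPKM with shRNA and 19.2 to 23.5 with RfxCasR (-0.90 log2, SE 0.045, limma adjusted p = 1.32e-11), and HIST3H2A was at 9.18 to 18.1 against 22.4 to 29.3 FPKM.

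Over all 73 HIST symbols, a list chosen after values were seen, 38 were tested, and 30 of these (78.9%, against 24.2% of all genes) were called lower and 0 higher by limma. Their median difference was -0.66 log2, against -0.0060 over all genes. Summed over the list, FPKM was 67.2 to 94.6 in the shRNA libraries and 161 to 190 in the RfxCasR libraries. The NT shRNA libraries, at 87.5 to 97.7, were within or close to the range of the targeting shRNAs, and the 6 array libraries, at 244 to 326, lay above the single-guide libraries. Between these left-out groups, which share no library with the comparison, the median difference of the same genes was -0.74 log2. Of the 38 genes, 34 were lower with the NT shRNA, against 43.6% of all genes. HIST genes are near-identical copies of few proteins, so the split of reads among them is uncertain, whereas the sum is less so.

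A list of 23 histone genes of both kinds had 16 lower and 0 higher by limma (69.6% lower against 24.2% of all genes), with a median of -0.51 log2. Of its 7 genes outside the clusters, which are expressed through the cell cycle, 2 were called lower and 0 higher. That is 28.6% lower, near the share over all genes. Chosen after their values were seen, H2AFZ was at 478 to 536 FPKM with shRNA and 469 to 489 with RfxCasR and was not called (limma adjusted p = 0.0811), and H1FX, which was called, differed by -0.17 log2. S phase genes went both ways: of 33, 9 were called higher and 9 lower, near the shares over all genes, with a median of -0.0066 log2. The 2 shRNAs were called in opposite directions for 9 of the 33, against 6.11% of all genes. The median was -0.14 log2 with the ANXA4 shRNA and 0.16 with the B4GALNT1 shRNA, so the pooled median joins opposite shifts. E2F1 was at 41.5 to 45.6 against 30.5 to 32.2 FPKM and CDC6 at 73.8 to 81.7 against 59.8 to 63.9, both higher with shRNA. The helicase subunit gene MCM3 was at 142 to 148 against 165 to 171 and was lower. DUT, called lower over the 6 libraries (-0.49 log2), differed by -0.97 with the ANXA4 shRNA and by -0.02 with the B4GALNT1 shRNA. In bulk RNA, fewer cells in a phase and less RNA per cell cannot be told apart.

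**Figure D3:**
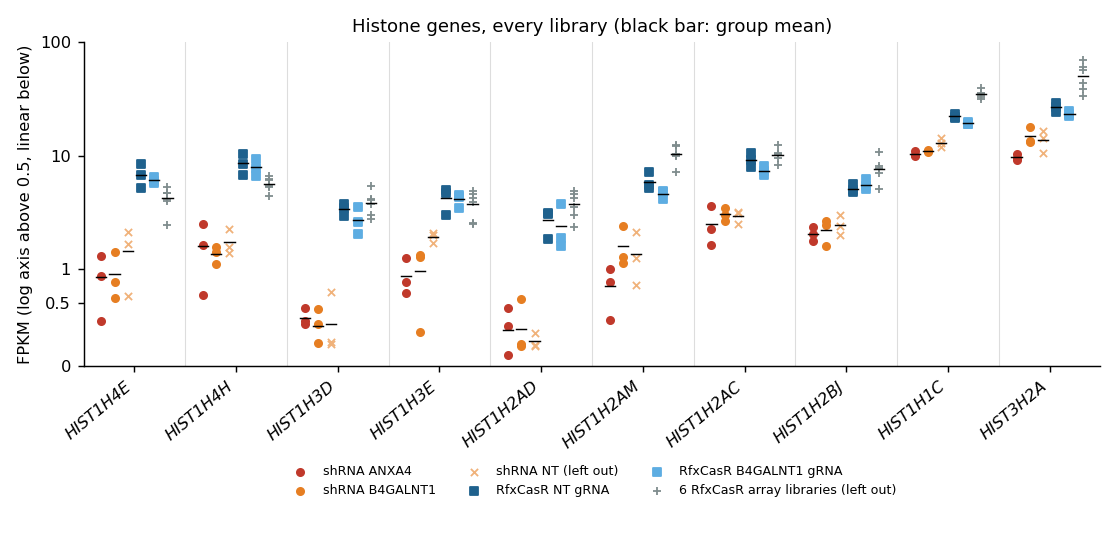
FPKM in every library (vertical; log axis above 0.5, linear below) for 10 HIST genes, with circles for the 2 targeting shRNAs, squares for single-guide RfxCasR, crosses for the NT shRNA, plus signs for the arrays and a bar for each group mean. In every gene shown the circles lie below the squares, which the choice of genes required of all but HIST1H1C and HIST3H2A. HIST1H1C, for example, has no circle above 11.3 and no square below 19.2 FPKM.

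The promoters of 4 of these genes are shown because many members of the family were lower together. They are RefSeq sequences of build GRCh38.p14, from 250 bases before to 50 after the start, whereas the expression values are on hg19. For the H4 genes HIST1H4E (chr6:26204360-26204659, plus strand) and HIST1H4H (chr6:26285485-26285784, minus strand), capitals mark the 3 stretches of at least 12 bases that both share, 62 bases in all with the longest of 26. For HIST1H2AC (chr6:26123922-26124221, plus strand) and HIST1H2BJ (chr6:27132746-27133045, minus strand), capitals mark 3 motifs on either strand, namely the TATA motif as TATAA, the box known as CCAAT, and the octamer bound by OCT1 as ATTTGCAT, and overlapping matches run together.
HIST1H4E: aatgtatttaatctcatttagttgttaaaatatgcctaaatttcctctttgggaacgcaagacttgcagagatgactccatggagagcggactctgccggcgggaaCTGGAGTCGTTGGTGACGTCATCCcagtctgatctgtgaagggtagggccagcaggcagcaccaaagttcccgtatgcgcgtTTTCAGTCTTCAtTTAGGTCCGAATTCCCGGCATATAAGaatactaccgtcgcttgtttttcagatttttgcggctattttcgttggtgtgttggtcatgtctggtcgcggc
HIST1H4H: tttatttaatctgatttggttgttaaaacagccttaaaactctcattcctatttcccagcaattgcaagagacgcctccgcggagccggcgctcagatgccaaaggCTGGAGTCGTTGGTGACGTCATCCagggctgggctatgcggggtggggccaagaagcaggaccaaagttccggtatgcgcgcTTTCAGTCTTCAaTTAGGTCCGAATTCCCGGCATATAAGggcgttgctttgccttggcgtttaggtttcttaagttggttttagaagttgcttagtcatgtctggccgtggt
HIST1H2AC: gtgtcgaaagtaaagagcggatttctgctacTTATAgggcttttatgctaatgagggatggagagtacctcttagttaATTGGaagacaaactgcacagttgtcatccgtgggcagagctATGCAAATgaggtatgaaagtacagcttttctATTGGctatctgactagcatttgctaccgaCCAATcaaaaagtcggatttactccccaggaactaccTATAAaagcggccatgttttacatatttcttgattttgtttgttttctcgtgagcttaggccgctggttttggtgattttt
HIST1H2BJ: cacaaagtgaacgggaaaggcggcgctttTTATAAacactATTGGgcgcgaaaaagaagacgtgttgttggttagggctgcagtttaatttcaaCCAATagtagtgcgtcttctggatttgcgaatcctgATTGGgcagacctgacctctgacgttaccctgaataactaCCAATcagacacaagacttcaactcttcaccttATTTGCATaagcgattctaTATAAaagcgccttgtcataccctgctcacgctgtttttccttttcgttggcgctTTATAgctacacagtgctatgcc
Of the 38 HIST genes tested, 32 had a promoter in the RefSeq table. TATAA was found in 29 of them (90.6%, against 24.2% of all 27305 promoters), CCAAT in 27 (84.4% against 39.7%) and the octamer ATTTGCAT in 14 (43.8% against 2.19%). The octamer was in 13 of 25 promoters of HIST genes called lower and in 1 of 7 of those not called. TATAA was in 22 of the 25 and 7 of the 7, and CCAAT in 21 of the 25 and 6 of the 7. Promoters of genes not called are few, and a link of any motif to the fall was not tested. Such matches describe the letters of this window, and binding was not measured.

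Outside the histone clusters, CDK4 was the most abundant gene among the largest falls. It encodes the cyclin D-dependent kinase that drives entry into S phase (hg19 chromosome 12, 58141510 to 58146230). It was at 61.8, 67.9 and 63.6 FPKM with the ANXA4 shRNA and at 58.8, 61.9 and 66.1 with the B4GALNT1 shRNA. RfxCasR libraries held 146, 150.3 and 144 FPKM with the NT gRNA and 141, 149 and 143 with the B4GALNT1 gRNA. The shRNA mean was 0.435 times the RfxCasR mean (-1.19 log2, SE 0.041, limma adjusted p = 1.30e-13). The NT shRNA libraries, at 132 to 143 FPKM, lay at or just below the RfxCasR range. A microRNA annotation inside CDK4, MIR6759, cannot be told apart from its host.

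TCTA was at 5.49 to 6.67 FPKM with shRNA and 12.3 to 17.2 with RfxCasR (-1.10 log2, SE 0.042, limma adjusted p = 3.90e-13), and the NT shRNA libraries held 7.03 to 7.60. Both antisense transcripts among the largest falls also had NT shRNA levels near the targeting shRNAs. TRIM52-AS1 was at 15.2 to 18.1 against 38.8 to 43.8 FPKM, with 15.0 to 17.3 in the NT shRNA libraries. FAM167A-AS1 was at 0 to 0.231 against 1.42 to 1.83 FPKM, with 0 to 0.214 in the NT shRNA libraries, so its shRNA values lie near 0; it overlaps TDH on the same strand. Of the 23 genes lower by 1 log2 unit or more, 10 were HIST genes, 6 were small nucleolar or Cajal body RNAs and 2 were microRNA annotations. The other 5 include HES5, a Notch target gene, at -1.15 log2, chosen after its value was seen. All 6 of those small RNAs and both microRNA annotations lie within a longer gene on the same strand, whose reads they may share.

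The NT shRNA and array libraries also set shRNA against RfxCasR, in libraries that the comparison did not use, although with other constructs. Their depths did not overlap, at 22.7 to 24.2 M reads with the NT shRNA and 34.7 to 39.5 M with the arrays. FPKM summed to 386287 to 396605 and to 413213 to 430696. The part of depth in this contrast was not tested. The array libraries went against their labels in ANXA4, with 2.54 to 7.22 FPKM over both groups, so the 6 were pooled. Against the single-guide RfxCasR libraries, 7382 genes (54%) differed with the NT shRNA and 9273 (67.8%) with the arrays (39.3% lower and 28.5% higher). Between the NT shRNA and the arrays 9587 genes were called (70.1%), 41% higher and 29% lower. Of the 3399 genes called higher with both targeting shRNAs, 2216 (65.2%) were also higher with the NT shRNA than with the arrays, against 56.4% of all genes. Of the 3316 called lower, 1704 (51.4%) were also lower, against 43.6% of all genes. The shift was thus in the same direction for more of the called genes than of all genes, and opposite for 34.8% of those called higher and 48.6% of those called lower. Among the 12 genes with the largest rise, DNAJB1 and TPRG1L were called lower with the NT shRNA than with the arrays, at -0.61 and -1.05 log2, and TMEM64, REEP3 and HOXA2 were not called there. The 12 with the largest fall were all called lower there. CDK4 is among them, although its NT shRNA libraries lay at or just below the single-guide RfxCasR range, as given above. A call there thus need not mean an NT shRNA level near the targeting shRNAs.

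Genes called in opposite directions by the 2 shRNAs were led by GNPDA1, a glucosamine-6-phosphate isomerase. It was at 67.3 to 72.1 FPKM with the ANXA4 shRNA, at 17.2 to 17.8 with the B4GALNT1 shRNA and at 40.9 to 45.7 with RfxCasR. The proton pump subunit gene ATP6V0E1 followed the same order, at 76.0 to 84.0, 26.3 to 31.2 and 46.4 to 56.1 FPKM. IMPDH1, an enzyme of guanine nucleotide synthesis, was at 36.4 to 38.8, 15.7 to 17.3 and 24.0 to 25.9 FPKM. The reverse order held for UBE2Z, a ubiquitin-conjugating enzyme, at 22.2 to 24.2, 51.1 to 53.3 and 33.8 to 35.1, and for MRPL17 of the mitochondrial ribosome, at 19.7 to 21.6, 40.7 to 44.2 and 28.7 to 32.3 FPKM. In these 5 genes a pooled mean of the shRNA libraries would hide the difference, and none is counted as called above.

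Genes of small RNA silencing were examined because an shRNA needs them and RfxCasR does not, although the cell's own microRNAs use them too. Among 7 Argonaute and TNRC6 genes, 4 were called higher and 0 lower (57.1% against 24.8% of all genes), with a median of 0.24 log2. TNRC6B, a scaffold that links Argonaute to deadenylation, was at 5.403 to 6.37 FPKM with shRNA and 3.64 to 4.19 with RfxCasR (0.47 log2, SE 0.053, limma adjusted p = 4.64e-07), at 0.48 log2 with the ANXA4 shRNA and 0.47 with the B4GALNT1 shRNA. Its paralog TNRC6A was at 7.53 to 12.9 against 6.41 to 7.48 FPKM and differed more with the ANXA4 shRNA (0.75 log2) than with the B4GALNT1 shRNA (0.22). AGO4 was at 5.47 to 6.06 against 4.19 to 5.13 FPKM. TNRC6C was at 1.96 to 3.603 against 1.95 to 2.38, so its libraries overlapped, and its difference was 0.46 log2 with the ANXA4 shRNA and 0.02 with the B4GALNT1 shRNA. Chosen after its values were seen, AGO1 went in opposite directions, -1.05 and 0.42 log2. In the NT shRNA libraries all 7 genes lay above the arrays, with a median of 0.56 log2, while 56.4% of all genes did so.

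Of 10 genes of hairpin processing and export, 3 were called higher and 1 lower (30% higher, near the 24.8% of all genes), with a median of 0.02 log2. DICER1, the nuclease that cuts hairpins to their final length, was at 14.2 to 16.7 FPKM with shRNA and 10.8 to 12.1 with RfxCasR (0.38 log2, SE 0.038, limma adjusted p = 1.35e-07), and the NT shRNA libraries were at 9.17 to 10.4. RAN, the GTPase that powers hairpin export, was at 262 to 272 against 208 to 224 FPKM (0.31 log2, SE 0.024, limma adjusted p = 3.28e-09). ADAR, which edits double-stranded RNA, was at 43.1 to 53.9 against 57.4 to 61.7 and was lower (-0.29 log2). PRKRA, a Dicer partner, was near the threshold at 0.11 log2 (limma adjusted p = 0.0423), and its call was lost without replicate 2 of the B4GALNT1 gRNA (limma adjusted p = 0.116), without replicate 1 of the ANXA4 shRNA (0.107) and without 5 other libraries left out singly. Let-7 targets, a family of microRNA-repressed oncofetal genes, had 9 members higher and 7 lower of 30, near the shares over all genes, among them TRIM71 (0.63 log2), LIN28B (0.38), CDC25A (0.35) and ARID3A (-0.42). Interferon and RNA sensing genes had 8 higher and 6 lower of 27, likewise near those shares, with USP18 at 0.34, IFI35 at -0.77, STAT2 at -0.31 and IFITM2 at -0.26 log2.

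Of 25 heat shock and chaperonin genes, 17 were called higher and 0 lower (68% against 24.8% of all genes), with a median of 0.20 log2. For 15 of the 25 the shRNA libraries lay above the RfxCasR libraries without overlap, against 13.1% of all genes. The 2 shRNAs were called in opposite directions for 4 of the 25, against 6.11% of all genes. DNAJB1, the HSP40 cochaperone that is a common readout of the heat shock response (hg19 chromosome 19, 14625576 to 14629371), was at 97.1, 96.6 and 98.4 FPKM with the ANXA4 shRNA and at 92.7, 98.8 and 95.5 with the B4GALNT1 shRNA. It was at 55.6, 53.4 and 51.9 FPKM with the NT gRNA and at 52.9, 54.1 and 53.02 with the B4GALNT1 gRNA. The groups of 1 method were within a few FPKM of each other, and the difference was 0.84 log2 (SE 0.026, limma adjusted p = 3.67e-14). HSPA8, the constitutive HSP70, was at 512 to 553 against 329 to 358 FPKM (0.63 log2, SE 0.027, limma adjusted p = 1.87e-12). TCP1, a subunit of the cytosolic chaperonin, was at 255 to 285 against 171 to 185, and the HSP70 and HSP90 adaptor STIP1 at 191 to 247 against 162 to 169 FPKM.

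The NT shRNA libraries did not share the chaperone difference throughout. DNAJB1 was at 51.0 to 51.8 FPKM there, the RfxCasR level, and HSPA8 at 372 to 389, just above it, while TCP1, at 237 to 240, lay nearer the targeting shRNAs. In the arrays DNAJB1 reached 74.3 to 81.6 and HSPA8 654 to 749 FPKM. Against the arrays, 19 of the 25 genes were lower with the NT shRNA (median -0.29 log2), against 43.6% of all genes. Chosen after their values were seen, the HSP90 genes HSP90AA1 and HSP90AB1, at 0.15 and -0.16 log2, were not called because the shRNAs differed in sign, and neither was HSF1, the heat shock transcription factor, at -0.10 log2. Also outside the naming rule, HSPA1A and HSPA1B, near-identical copies whose reads are uncertain, were at 0.43 and 0.39 log2.

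The promoter of HSPA8 (RefSeq, GRCh38.p14 chr11:123062087-123062386, minus strand) is shown with its matches to the heat shock element, searched on both strands as the units TTC and GAA in alternation, TTC first and last, 2 bases of any kind apart, in capitals.
HSPA8: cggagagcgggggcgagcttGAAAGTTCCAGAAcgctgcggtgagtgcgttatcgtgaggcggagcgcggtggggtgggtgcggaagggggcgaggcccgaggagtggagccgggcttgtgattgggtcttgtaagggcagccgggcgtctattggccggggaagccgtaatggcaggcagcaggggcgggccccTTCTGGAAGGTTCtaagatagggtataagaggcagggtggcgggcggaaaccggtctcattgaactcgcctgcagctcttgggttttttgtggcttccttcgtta
The motif was found in 5 of the 23 chaperone promoters in the table (21.7%, against 0.608% of all promoters). Of those 5 genes, HSPA8, HSPD1 and DNAJA1 were called higher, and HSP90AA1 and HSP90AB1 were not.

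Stress responses of the endoplasmic reticulum and of amino acid supply went different ways. Of 22 unfolded protein response genes, 14 were called higher and 3 lower (63.6% and 13.6%, against 24.8% and 24.2% of all genes), with a median of 0.14 log2. In the left-out libraries, 14 of the 22 were lower with the NT shRNA than with the arrays (median -0.11 log2), against 43.6% of all genes. HSPA5, the chaperone BiP, was at 163 to 174 FPKM with shRNA and 121 to 127 with RfxCasR (0.45 log2, SE 0.024, limma adjusted p = 4.01e-11), with the NT shRNA libraries at 123 to 130.4. HERPUD1 was at 20.1 to 28.8 against 15.3 to 18.7 FPKM. The disulphide isomerase gene PDIA6 and SEL1L, a factor of protein degradation, were lower, at -0.55 and -0.88 log2 with the ANXA4 shRNA and at -0.06 and -0.12 with the B4GALNT1 shRNA.

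In the list of the integrated stress response with amino acid supply, 14 of 26 genes were called lower and 4 higher (53.8% against 24.2% of all genes lower), with a median of -0.23 log2. ATF4, the transcription factor at the head of this response (hg19 chromosome 22, 39916569 to 39918691), was at 123 to 216 FPKM with shRNA, with a median of 167, and at 245 to 281 with RfxCasR, with a median of 273 (-0.73 log2, SE 0.037, limma adjusted p = 1.38e-11). Its fall was larger with the ANXA4 shRNA (-1.08 log2) than with the B4GALNT1 shRNA (-0.38), a difference that was called (limma adjusted p = 2.44e-09). PYCR1, of proline synthesis, was at 78.1 to 88.0 against 112 to 123 FPKM, with -0.48 log2 for the ANXA4 and -0.49 for the B4GALNT1 shRNA. PHGDH, the first enzyme of serine synthesis, was at 141 to 183 against 223 to 235 FPKM, and the pseudokinase gene TRIB3 at 7.47 to 10.1 against 13.6 to 15.2. Each of these 4 genes had no overlap between the methods. For the list, the NT shRNA against the arrays had a median of 0.10 log2, against 0.067 over all genes. There 19 of the 26 genes were higher, against 56.4% of all genes.

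Of 28 matrix and adhesion genes, 17 were called lower and 2 higher (60.7% lower against 24.2% of all genes), with a median of -0.22 log2. TIMP3, a metalloproteinase inhibitor, was at 1.89 to 4.64 against 5.14 to 6.12 FPKM, and agrin, AGRN, at 8.37 to 11.6 against 15.1 to 17.1. The laminin chain gene LAMA5 was at 4.36 to 5.69 against 6.73 to 7.26 FPKM and TIMP1 at 32.8 to 48.6 against 50.2 to 54.3. The 4 genes were lower with both shRNAs and lower still with the ANXA4 shRNA (limma adjusted p of the difference between shRNAs from 4.39e-10 to 0.00746). Of 28 list members, 20 were higher with the NT shRNA than with the arrays, against 56.4% of all genes.

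Relatives of the targets were measured as well. Of 8 annexins, 4 were called lower and 0 higher (50% lower against 24.2% of all genes), among them ANXA4 itself, ANXA6 (-0.24 log2), ANXA2 (-0.20) and ANXA11 (-0.12). Of 13 ganglioside and B4GALNT enzymes, 2 were higher and 3 lower (23.1% lower). ST6GALNAC6, a sialyltransferase, was at 25.2 to 40.6 against 22.6 to 24.3 FPKM, B4GALT6, a lactosylceramide synthase, at 3.95 to 7.05 against 7.36 to 8.74, and ST3GAL1 and ST3GAL5 differed by -0.25 and -0.27 log2. Among the identity genes of the HEK line that were lower, NES, nestin, was at 3.54 to 7.71 against 8.75 to 9.33 FPKM, and the keratin genes KRT18 and KRT8 differed by -0.49 and -0.39 log2. NEFM, a neurofilament, was at 19.1 to 26.2 against 26.7 to 31.1 FPKM. Of 7 markers of other cells that were tested, 4 were lower and 1 higher, with COL1A1 at -0.37, CD14 at -0.53, ACTA2 at -0.50 and COL3A1 at 0.32 log2.

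Cytosolic ribosomal protein genes were called lower in 57 of 79 cases and higher in 1 (72.2% lower against 24.2% of all genes), by a median of -0.14 log2. With the shRNAs called separately 16 of the 79 were lower with both, against 12.2% of all genes under that rule. After quantile normalization the pooled counts were 31 lower and 9 higher. The rule on sign let in genes with a difference near 0 for the B4GALNT1 shRNA. RPLP1, of the ribosomal stalk, was at 438 to 1536 FPKM with shRNA and 1438 to 1612 with RfxCasR, with -1.75 log2 for the ANXA4 shRNA and -0.01 for the B4GALNT1 shRNA, and RPLP2 had -1.37 and -0.03. RPL13A was at 225 to 382 against 398 to 422, and RPL34 at 232 to 312 against 324 to 362 FPKM, without overlap. Processed pseudogenes may take part of their reads. Mitochondrial ribosomal proteins had 30 of 77 higher (39% against 24.8% of all genes) and 7 lower, with a median of 0.045 log2. Among those called were MRPS30 (0.35 log2), MRPS35 (0.35), MRPL10 (-0.51) and MRPS26 (-0.35). For 9 of the 77 the 2 shRNAs were called in opposite directions, against 6.11% of all genes. Nuclear subunits of oxidative phosphorylation had 10 of 76 higher (13.2%) and 18 lower (23.7%), led by UQCRQ (-0.60), UQCR11 (-0.43), ATP5C1 (-0.29) and UQCR10 (-0.26). The proteasome had 9 of 34 higher (26.5%) and 2 lower, with PSME3 at 0.34, PSMA6 and PSMD12 at 0.24 and PSMD8 at -0.19 log2. With the NT shRNA, 70 of the 77 mitochondrial and 47 of the 79 cytosolic ribosomal protein genes were lower than with the arrays. So were 59 of the 76 oxidative phosphorylation and 29 of the 34 proteasome genes, against 43.6% of all genes.

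The growth and signalling lists are read against 24.8% of all genes higher and 24.2% lower. Immediate early genes had 10 of 17 higher (58.8%) and 4 lower. EGR1, a serum-induced transcription factor, was at 3.39 to 7.30 against 1.15 to 2.92 FPKM (0.97 log2, SE 0.093, limma adjusted p = 6.31e-08), while MYC, at 30.9 to 39.7 against 40.4 to 42.4, and IER5 (-0.40 log2) were lower. NF-kB genes had 4 of 9 higher and 2 lower. With the shRNAs called separately 0 were higher and 1 lower, against 14.1% and 12.2% of all genes under that rule. RELB was at 1.09 log2 for the ANXA4 shRNA and 0.09 for the B4GALNT1 shRNA. Over both, NFKB1 was at 0.22, TNFAIP3 at 0.23 and NFKB2 at -0.22. Glycolysis and hypoxia genes had 15 of 32 higher (46.9%) and 5 lower, with HIF1A at 37.2 to 39.6 against 25.5 to 28.98 FPKM, SLC2A3 at 0.40, PFKP at 0.19 and HK2 at -0.41 log2. Of 21 p53 targets, 4 were higher and 6 lower (19% and 28.6%), near the shares over all genes. CDKN1A, the p21 inhibitor, was at 6.38 to 8.36 against 11.8 to 12.7 FPKM (-0.67 log2, SE 0.063, limma adjusted p = 4.82e-08), at 6.71 to 8.35 in the NT shRNA libraries, and DDB2 (-0.35), TNFRSF10B (0.32) and PPM1D (0.23) were also called. Of 30 genes of G2 and mitosis, 12 were higher (40%) and 7 lower (23.3%), with BUB1 at 0.34, CDK1 and KIF20A at -0.32 and KIF2C at -0.30 log2.

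Against the same 24.8% higher and 24.2% lower, RNA decay and stress granule genes had 15 of 32 higher (46.9%) and 5 lower, with CNOT6 at 0.40, TIA1 at 0.29, EXOSC10 at 0.27 and DCP1B at -0.48 log2. Splicing factors of the SR and hnRNP families had 15 of 33 higher (45.5%) and 9 lower, with CLK1 at 0.50, SRSF10 at 0.40, HNRNPH2 at -0.41 and HNRNPA1 at -0.35. Aminoacyl-tRNA synthetases had 10 of 23 higher (43.5%) and 2 lower, with FARSB at 0.40, AIMP1 at 0.29, VARS at 0.25 and KARS at 0.24. Lysosome and autophagy genes had 7 of 30 higher and 11 lower (36.7%), with ATG5 at 0.51, ATP6V0D1 at 0.26 and NPC2 at -0.49. Cholesterol synthesis genes had 6 of 26 higher and 7 lower (23.1% and 26.9%), close to the shares over all genes, with INSIG1 at -0.53, LSS at -0.43, SQLE at -0.29 and PMVK at -0.30 log2.

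**Figure D4:**
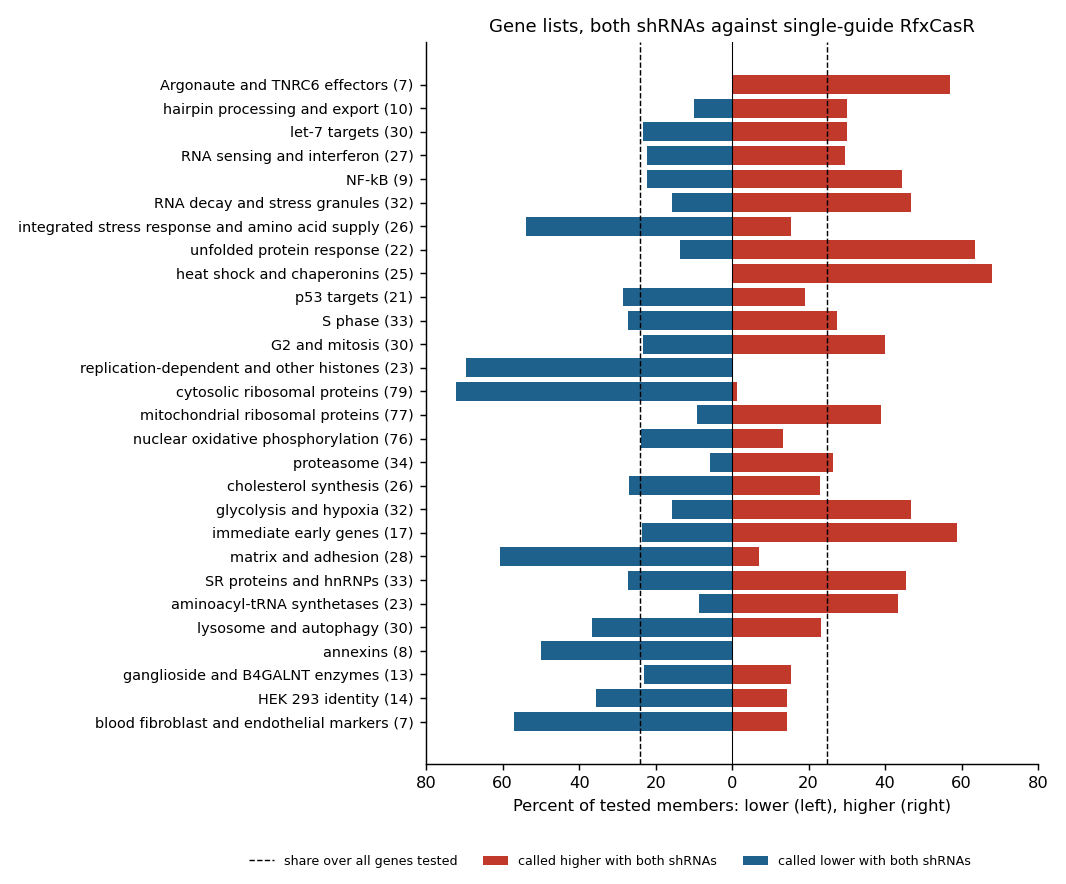
Percent of the tested members of each gene list (number in brackets) called higher (right, red) or lower (left, blue) with both shRNAs against single-guide RfxCasR, with dashed lines at the shares over all 13679 genes, 24.8% higher and 24.2% lower. Heat shock genes reach 68% higher with none lower, and cytosolic ribosomal proteins (72.2%), histones (69.6%), matrix genes (60.7%), markers of other cells (4 of 7) and the integrated stress response (53.8%) extend farthest to the lower side.

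The called genes also shared features that were not used to choose them. Exon length had a median of 3258 bases in genes called higher and 2405.5 in genes called lower, against 2670 over all genes. In 5 groups of nearly equal size, from the shortest to the longest genes, the share called higher was 11.8%, 22.6%, 26.6%, 29.4% and 33.9%, and the share called lower 28.1%, 26.9%, 26.2%, 20.9% and 19%. The share thus rose with length for higher genes and fell for lower ones. The median difference between the NT shRNA and the arrays went the same way with length, from -0.10 log2 in the shortest group to 0.20 in the longest.

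Gene classes are read against the same 24.2% of all genes lower and 24.8% higher. Of 663 noncoding RNAs of at least 200 bases, 41% were called lower and 6.18% higher, with a median of -0.18 log2. Antisense symbols (43.3% lower and 4.08% higher of 245) and LINC symbols (41.2% lower and 3.53% higher of 85) were alike. These sets were taken by symbol and a length of at least 200 bases, not from the noncoding class. Intronless genes without a HIST symbol were 29.4% lower, near the share over all genes, and 15% higher of 408. Small nucleolar RNAs, which lie mostly inside host genes, were 18.5% lower and 1.23% higher of 162. Zinc finger genes with a ZNF symbol, a family of transcriptional repressors for the most part, were 30.1% higher and 11.1% lower of 425. The depths of the shRNA and single-guide libraries compared overlap, as given above, and the part of depth in these shares was not tested.

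**Figure D5:**
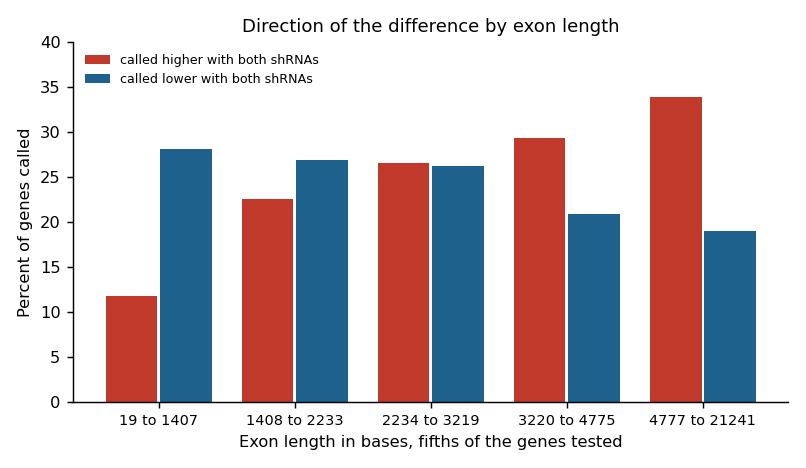
Percent of genes called higher (red) or lower (blue) with both shRNAs against single-guide RfxCasR, for the 13679 genes tested in 5 groups by exon length in bases. Genes called higher go from 11.8% in the shortest group to 33.9% in the longest, and genes called lower from 28.1% to 19%.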

How the data were processed

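One deposited table gives FPKM for 27142 genes in all 21 libraries. It was made with HOMER from sense-strand reads in exons, 1 row per gene, per the file headers. The submitters' processing notes name hg19 and, beside HOMER, FastQC, STAR, R 3.3.2 and DESeq2 1.14.1. The authors' 4 comparison tables were not used.

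Tested were the 13679 genes that reached 1 FPKM in 3 or more libraries. limma 3.58.1 (R 4.3.3) fitted 7 group means to log2(FPKM + 1), using an intensity trend and Benjamini-Hochberg adjustment over all genes, after tests on simulated data. The array and NT shRNA libraries inform the spread only. Depth was recovered from steps in FPKM times exon length (95.6% to 99.5% of values whole within 0.1). The same fit gave each shRNA alone and the differences within a method; alternatives are in the closing section.

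Groups, the comparison and 28 gene lists were chosen with earlier results of these data known. Named are both targets, the 12 largest non-overlapping calls per direction by the smaller shRNA difference (at least 200 bases), up to 4 called members per list by p, and the 5 largest opposite differences. Promoters of the RefSeq table (GRCh38.p14) were matched by symbol.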

Additional observations from a re-analysis of the deposited data

Results flagged for a closer look

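The ANXA4 and B4GALNT1 shRNA groups share the RfxCasR reference, so a direct contrast tests whether their differences from it differ. Among both targets, the 24 genes with the largest shared differences and the 5 opposite ones, the limma adjusted p of the contrast was under 0.05 in 11 (ANXA4 shRNA minus B4GALNT1 shRNA, n = 3 each). Over all genes tested, 6384 (46.7%) were called in this contrast. The 24 genes were picked for a large difference with both shRNAs and the 5 for opposite differences, from these same libraries, so the count of 11 reflects that choice. For the targets it was -0.81 log2 for ANXA4 (adjusted p = 6.13e-08) and 0.81 for B4GALNT1 (adjusted p = 4.34e-08), each lower with its own shRNA. Of the genes higher with both shRNAs, TMEM64 (0.24, adjusted p = 0.00389) and TMEM245 (0.15, adjusted p = 0.00765) were higher still with the ANXA4 shRNA. Of those lower with both, HIST1H2AM (-0.59, adjusted p = 0.0288) was lower with the ANXA4 shRNA and TCTA (0.15, adjusted p = 0.043) with the B4GALNT1 shRNA. The 5 opposite genes gave 1.94 log2 for GNPDA1, 1.45 for ATP6V0E1, 1.16 for IMPDH1, -1.11 for UBE2Z and -0.996 for MRPL17. Their choice fixed this outcome, so these values are a description and no p is given.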

How the results depend on the processing

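Over 12 other settings, 2836 to 3738 genes higher replaced 3399 and 2674 to 3634 lower replaced 3316, and 46.1% to 55.2% of calls were higher, against 50.6%. Leaving out each of 12 libraries gave 3228 to 3359 higher and 3112 to 3236 lower, 1622 to 1880 and 1411 to 1593 when the shRNAs were called separately, 5664 to 6317 between the shRNAs, 1 between the gRNAs and 9541 to 9567 between the NT shRNA and the arrays, with 2091 to 2194 and 1607 to 1673 genes of the same sign there. ANXA4 ranged from -0.89 to -0.83 log2 and B4GALNT1 from 0.0534 to 0.146; its pooled p passed 0.05 only without replicate 2 of the NT gRNA (limma adjusted p = 0.0119), where the rule on sign still gave no call. B4GALNT1 turned to -0.451 (limma adjusted p = 1.45e-05) with the NT gRNA libraries alone as reference, which leaves out the libraries whose guide targets it. Between the gRNAs, 3 genes were called without the 6 array libraries in the fit; the cause was not tested. Same-numbered libraries correlated at -0.02 to 0.109 over 18 pairs, and 11 of 12 libraries were closest to their own number. The main fit did not take numbers as pairs, although the highest correlation was above the pairing threshold of 0.1. Whether same-numbered libraries share a batch was not tested. A replicate block gave 3405 higher and 3325 lower, and 2 genes between the gRNAs. Of the other named genes, PRKRA lost its call in some settings, the pooled p of ATP6V0E1, which was not called, crossed 0.05 in some, and none reversed. The median of the HIST genes was -1.24 log2 with a pseudocount of 0.1 and -1.34 on recovered reads. Replicate libraries of these depths still differed by 2.24 to 4.03 in chi-square per degree of freedom.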
